A study of Mus musculus with 32 samples.

Results

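The genes described here are 10 markers of liver endothelium, namely Stab1, Stab2, Lyve1 and Clec4g, which mark liver sinusoidal endothelial cells (LSEC), Kdr, Pecam1 and Cdh5, which mark endothelium in general, and Vwf, Cd34 and Plvap, which mark large vessels and capillaries. They were chosen by name, through every non-control probe that carries one of these gene names, which gave 16 of 55681 probes and 10 of 21289 tested genes. Their mRNA levels were measured in whole livers of male C57/BL6 mice on 32 one-colour arrays of 60-base probes, 1 array for each liver sample and 4 in each of 8 groups. Before partial hepatectomy (PH) these were mice fed standard chow (C) or a methionine and choline deficient diet (MCD) for 3 weeks, and mice on the same diets that received Fc-GLP-1, a GLP-1 peptide fused to an antibody Fc fragment, for the last 2 weeks (C+Fc-GLP-1 on chow, M+Fc-GLP-1 on the deficient diet). After PH these were the same 4 conditions 2 weeks after removal of 70% of the liver, with diet and treatment continued per the methods. In the study fewer MCD than M+Fc-GLP-1 mice survived the first days after PH. Livers after PH therefore came from survivors, and the part of survival in their values was not tested. The C and MCD groups received saline per the methods, and all mice were young adults when the diets began. Per the study the livers of the treated groups before PH were the lobes taken out at surgery from the group of mice later examined after PH, but which array before PH belongs to which mouse after PH is not stated. Part of the labels names Fc-GLP-1, whereas others give an agonist of both GLP1R and GCGR, at 4.4 mg/kg/day, and the array values do not settle this conflict. The source label of C+Fc-GLP-1 mice after PH names a dual agonist for the weeks after PH. That of M+Fc-GLP-1 mice after PH says that the same treatment went on. By these labels, comparisons that include C+Fc-GLP-1 mice after PH may differ in drug too. The methionine and choline deficient diet is a dietary model of fatty liver, and PH starts regrowth of the remaining lobes.

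The walls of the hepatic sinusoids are lined by LSEC, which have open pores and no continuous basement membrane, and which take up waste from blood through scavenger receptors. Stab1 and Stab2 encode such receptors, Stab2 being a main receptor for hyaluronan, Lyve1 encodes another hyaluronan receptor, and Clec4g encodes a C-type lectin, LSECtin. In chronic liver injury LSEC can lose their pores and take on features of continuous capillaries, a change called capillarization, in which Cd34, Vwf and Plvap are among the markers usually followed. Because whole livers were used, fewer endothelial cells and less mRNA per cell cannot be told apart in any value given here.

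Several of these genes carry more than 1 probe, and the probes did not behave alike, so the probes that mattered are shown by the first 30 of their 60 bases, in lower case and 5′ to 3′, with positions on mm9, the build named in the array files. For Stab2 the brightest probe lies at chr10:86303982-86304041 and was designed on a RefSeq transcript, whereas the other 2, at chr10:86381487-86381546 and chr10:86455257-86455316, were designed on Ensembl transcripts, all on the minus strand. The 3 Stab2 probes are listed in that order.
Stab2 A_55_P1974028: taagcaccaaaggcaaggcttcatcccata
Stab2 A_55_P2026492: ggcctctgtcatatgtgacctcacatacat
Stab2 A_55_P2026487: tataatgcctgactctgggaacaagcaaac

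For Kdr both probes were designed on RefSeq, at chr5:76330395-76330454 for the brightest and chr5:76329309-76329368 for the other, on the minus strand, and the second is printed in 10 spots on the array. The brightest Vwf probe, at chr6:125636551-125636610 on the plus strand, was designed on RefSeq and the dim one, at chr6:125542106-125542165, on an Ensembl transcript.
Kdr A_55_P2094469: tgtttaaatggaagtggtcctgtcccggct
Kdr A_51_P316553: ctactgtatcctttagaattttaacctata
Vwf A_51_P103397: caagtgaggcctgtgcagctacagcggatt
Vwf A_55_P2169659: tagttaaacagaacaacagtgaagggcgga

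RefSeq's table of promoters on GRCm38.p6 was matched for 5 of the 10 genes, Stab1, Stab2, Clec4g, Kdr and Cd34. Each ran from 250 bases before to 50 after the start used there. For all but Cd34 that start lies inside the gene as annotated on this build, and for Kdr all 300 bases do. The 2 shown belong to the sinusoidal genes whose mRNA levels passed the test below. Capitals mark AGGAAG on either strand, with overlapping matches counted. It is 1 of the strings recognised by ETS factors, a family of transcription factors used widely in endothelium. These letters were found in 4 of the 5 promoters, all but that of Kdr, and in 35.4% of 32851 promoters of 300 bases. AGATAA, 1 of the strings recognised by GATA factors, was in 0 of the 5 and in 11.2% of all promoters. Other forms of either string were not searched, so their absence is not shown.
Stab2 chr10:87007893-87008192, minus strand, 1 match: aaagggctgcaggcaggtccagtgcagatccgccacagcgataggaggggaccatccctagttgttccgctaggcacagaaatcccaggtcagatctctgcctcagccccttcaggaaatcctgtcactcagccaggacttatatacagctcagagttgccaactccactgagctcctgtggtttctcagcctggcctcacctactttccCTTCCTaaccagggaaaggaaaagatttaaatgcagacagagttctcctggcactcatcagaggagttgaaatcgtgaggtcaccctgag
Clec4g chr8:3720602-3720901, minus strand, 3 matches: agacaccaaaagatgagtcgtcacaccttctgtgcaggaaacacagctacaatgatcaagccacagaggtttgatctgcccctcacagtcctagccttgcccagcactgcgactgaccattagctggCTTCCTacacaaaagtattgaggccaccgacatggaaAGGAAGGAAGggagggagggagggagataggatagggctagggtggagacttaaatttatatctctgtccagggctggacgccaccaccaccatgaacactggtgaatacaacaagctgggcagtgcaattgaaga

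Levels are given on the log2 scale, as processed signal relative to the 75th percentile of its own array, so that a value of 1.00 more is a doubling and a gene at 0 lies at that percentile, and 1 probe's level cannot be set against another's. The brightest probe stood for each gene, and all 10 of these probes were well above background on every array on which they were measured. Stab1 was flagged as an outlier spot on the first MCD array after PH and was therefore fitted on 31 arrays. The arrays were spread over 5 slides and 2 scanners, and the share of probes well above background ranged from 36.3% to 69.2% over the arrays. MCD and C mice before PH shared a slide, as did M+Fc-GLP-1 and C+Fc-GLP-1 mice before PH and the same pair after PH. In all other comparisons between groups, slide and group cannot be told apart. The C and MCD mice after PH were read on 1 scanner and all other groups on the other. In comparisons of C or MCD mice after PH with those other groups, scanner and group cannot be told apart either. The tissue label was borne out by 9 of 9 measured hepatocyte markers, well above background on all arrays of every group.

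Differences were tested with limma across all 21289 genes and 32 arrays, with a Benjamini-Hochberg adjusted p threshold of 0.05. Of 140 values, 10 genes in 14 comparisons, 7 passed this threshold. They belonged to 4 genes, Stab2 in 3 comparisons, Clec4g in 2, and Vwf and Kdr in 1 each. Stab1, Lyve1, Pecam1, Cdh5, Cd34 and Plvap passed in none. The plot of levels by group shows the spread behind this.

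**Figure D1:**
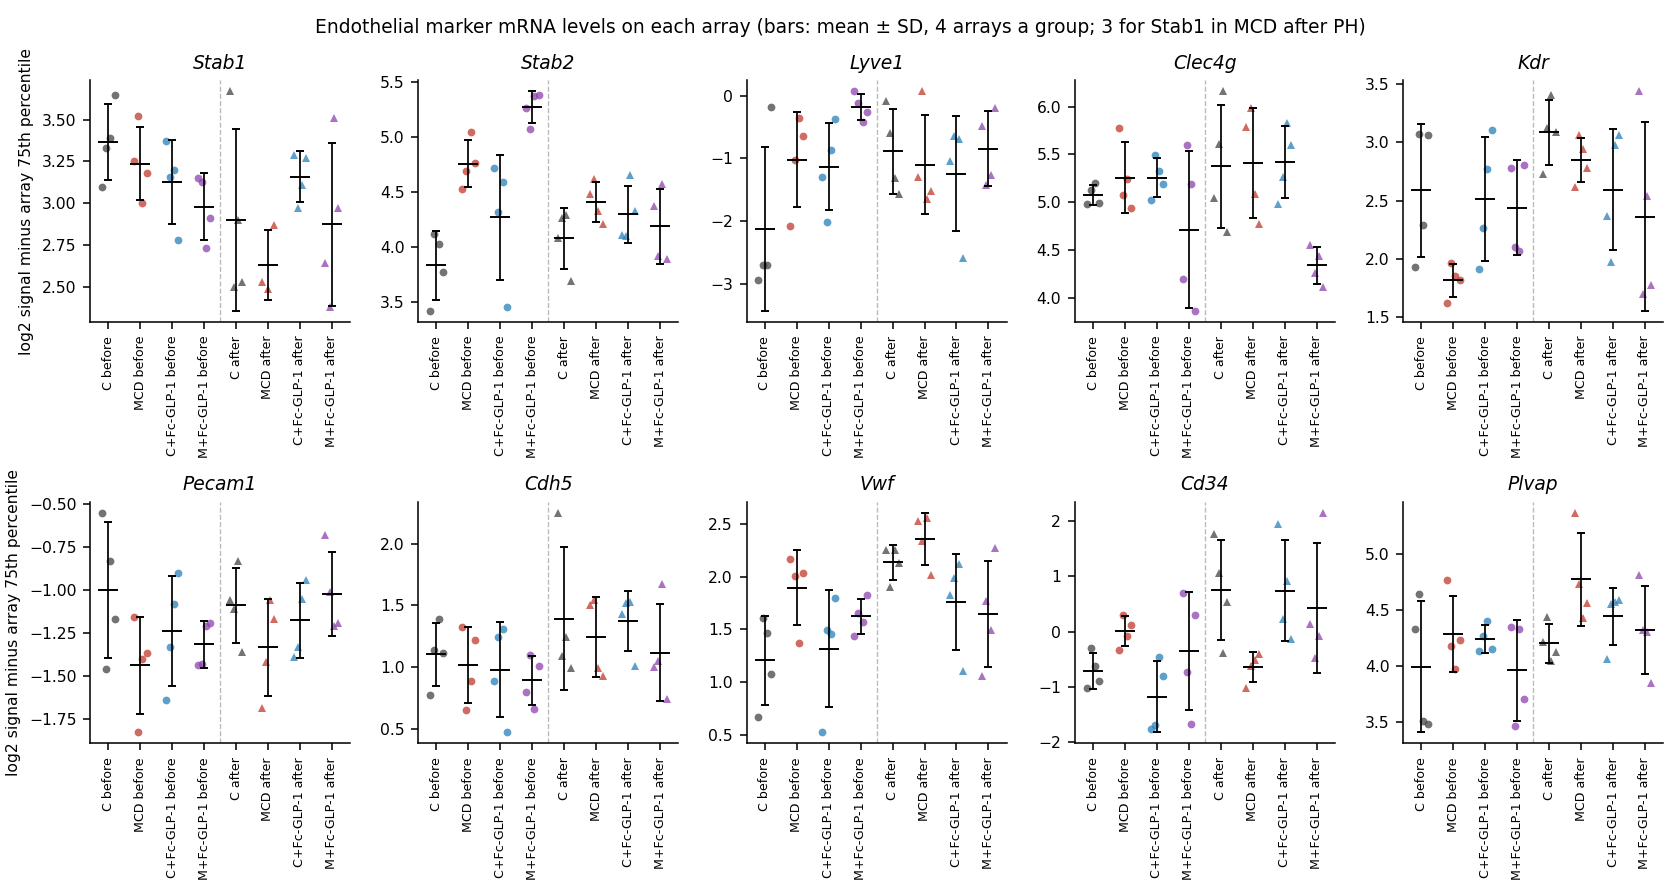
Level of each of the 10 genes (y axis, log2 signal minus the array's 75th percentile) on each array of the 8 groups (x axis; circles before PH, triangles after PH), with black bars for mean ± SD. Stab2 was highest in M+Fc-GLP-1 mice before PH (5.07 to 5.38) and Clec4g lowest in M+Fc-GLP-1 mice after PH (4.11 to 4.55), while Lyve1 and Cd34 spread widely within groups.

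Stab2 mRNA was higher on the MCD diet before PH, with and without Fc-GLP-1. In C mice before PH its levels were 3.42, 4.12, 4.03 and 3.77, and in MCD mice 4.53, 4.69, 5.04 and 4.76. All MCD mice thus lay above all C mice, and the difference was 0.92 ± 0.24 (SE) on the log2 scale, or 1.89-fold, with a 95% confidence interval of 0.44 to 1.41 and an adjusted p of 0.00496. Stab2 was the 1 gene called among the 10, against 26.3% of all tested genes in this comparison. In C+Fc-GLP-1 mice before PH the levels were 4.72, 4.32, 4.59 and 3.46, and in M+Fc-GLP-1 mice 5.26, 5.07, 5.37 and 5.38. These groups did not overlap either, and differed by 1.00 ± 0.24 (SE), 2.00-fold, with an interval of 0.51 to 1.48 and an adjusted p of 0.00593. Again 1 of the 10 genes was called, with 10.4% of all genes called. The diet effects with and without the drug differed by 0.08 ± 0.33 (SE), interval -0.61 to 0.76, adjusted p = 0.917, and 6.13% of all genes were called in this interaction.

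The Stab2 increase rested on its brightest probe. Probe A_55_P2026492 of Stab2 differed between MCD and C mice before PH by 0.08 ± 0.36 (SE), adjusted p = 0.893, and probe A_55_P2026487 by -0.74 ± 0.39 (SE), adjusted p = 0.163, in a fit over 29300 probes. With Fc-GLP-1 the same pair gave 0.02 ± 0.36 and 0.65 ± 0.39 (SE). With the mean over the Stab2 probes the diet difference was 0.09 (adjusted p = 0.839) without and 0.56 (adjusted p = 0.205) with the drug. With normexp background correction and quantile normalization in place of the 75th percentile it was 0.59 (adjusted p = 0.105) and 0.81 (adjusted p = 0.0613), and with the authors' values 0.61 (adjusted p = 0.113) and 0.83 (adjusted p = 0.0674). The array 75th percentiles moved with diet on these slides, from 209.4 to 395.2 intensity units in C and 442.4 to 563.6 in MCD mice, and from 221.7 to 254.5 in C+Fc-GLP-1 against 268.1 to 337.6 in M+Fc-GLP-1 mice. Their part in the Stab2 result was not tested. The median over all genes was -0.12 between MCD and C mice before PH, and 0.24 where arrays were centred on their medians, which gave -0.22 in place of 0.04 between M+Fc-GLP-1 and C+Fc-GLP-1 mice before PH. With that centring the Stab2 difference under Fc-GLP-1 was 0.74, adjusted p = 0.0601.

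Markers of other cell types also differed on the same slides. Of all tested genes 26.3% were called between MCD and C mice before PH and 10.4% under Fc-GLP-1. Between MCD and C mice before PH 7 of 11 measured Kupffer cell markers rose and 0 fell, with a summed linear level of 68.0 to 104 in C and 133 to 342 in MCD mice. Of the stellate cell and fibroblast markers 5 of 10 rose and 0 fell (79.1 to 117 in C, 216 to 417 in MCD), and 4 of 9 hepatocyte markers fell. Of 9 recruited macrophage markers 4 rose and 1 fell, with a median summed level of 16.1 and a highest of 21.2 in C, and of 19.8 and 28.3 in MCD mice. Of the platelet and megakaryocyte markers 1 of 5 rose (1.26 to 1.82 and 2.49 to 5). Of the mesothelial markers 1 of 4 rose, although their summed level was lower in MCD mice (2.03 to 4.61 and 1.04 to 1.62). The median log2 change of the mesothelial list was -0.35. Neither of these 2 shares was above that of all genes. Of 8 lymphocyte markers 2 rose and 3 fell, with summed levels of 70.5 to 150 in C and 16.9 to 21.0 in MCD mice. Under Fc-GLP-1 before PH 0 Kupffer markers rose and 2 of 11 fell, with summed levels of 83.3 to 148 in C+Fc-GLP-1 against 63.7 to 134 in M+Fc-GLP-1 mice. There 2 of 5 platelet and megakaryocyte markers fell (2.83 to 10.4 and 1.88 to 3.80), as did 1 of 10 stellate markers (86.6 to 143 and 24.9 to 254). The stellate share was near that of all genes, and the median log2 change of the stellate list was 0.41. All 11 Kupffer markers were well above background on every array of C, MCD and C+Fc-GLP-1 mice and 10 on every array of M+Fc-GLP-1 mice, and Cd163 was not among the genes tested. Their part in the Stab2 values was not tested.

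After PH the Stab2 levels of the diet groups overlapped. They were 4.08, 4.26, 4.29 and 3.69 in C and 4.48, 4.62, 4.33 and 4.21 in MCD mice. Under the drug they were 4.11, 4.10, 4.65 and 4.33 on chow (C+Fc-GLP-1) and 4.37, 3.92, 4.57 and 3.89 on the deficient diet (M+Fc-GLP-1). MCD and C mice, on different slides, differed by 0.33 ± 0.24 (SE), interval -0.16 to 0.81, adjusted p = 0.411, with 3 of 4 MCD arrays above all C arrays. M+Fc-GLP-1 and C+Fc-GLP-1 mice, on 1 slide, differed by -0.11 ± 0.24 (SE), interval -0.59 to 0.37, adjusted p = 0.838. The change in the diet effect under Fc-GLP-1 from before to after PH was -1.11 ± 0.33 (SE), interval -1.79 to -0.42, with an unadjusted p of 0.00249 and an adjusted p of 0.233, in a comparison in which 0.0939% of all genes were called. From before to after PH, Stab2 in M+Fc-GLP-1 mice dropped by 1.08 ± 0.24 (SE), 2.12-fold, adjusted p = 0.0137, with no overlap, and 1 of the 10 genes was called against 1.71% of all genes. This last pair of groups lay on different slides. The other Stab2 probes differed in the same direction, A_55_P2026492 by -1.07 ± 0.36 (SE, adjusted p = 0.13) and A_55_P2026487 by -0.71 ± 0.39 (SE, adjusted p = 0.382). Left without M+Fc-GLP-1 after PH replicate 2 or 4, its adjusted p was 0.06 or 0.0524, and the call was also lost with median centring (-0.99, adjusted p = 0.0541), with the mean over probes (-0.95, adjusted p = 0.0717) and with only these groups fitted (adjusted p = 0.0914). In this comparison 2 of 11 Kupffer markers rose (63.7 to 134 before, 178 to 263 after PH), as did 1 of 10 stellate markers (24.9 to 254 and 113 to 166) and 1 of 4 mesothelial markers (0.677 to 5.73 and 1.56 to 14.3), and their part in the Stab2 value was not tested.

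Clec4g mRNA was lower in M+Fc-GLP-1 mice after PH than in C+Fc-GLP-1 mice after PH. By the source labels this pair may differ in the drug given after PH as well as in diet. The levels were 4.55, 4.26, 4.44 and 4.11 in M+Fc-GLP-1 and 4.98, 5.26, 5.83 and 5.60 in C+Fc-GLP-1 mice. The groups, which shared a slide, did not overlap and differed by -1.08 ± 0.33 (SE), 2.11-fold, interval -1.75 to -0.40, adjusted p = 0.0281. This was the 1 gene called of the 10, with 12.9% of all genes called. The call was lost in 4 of the 8 fits that left out 1 array, with adjusted p up to 0.098 (without C+Fc-GLP-1 replicate 3 or 4, or M+Fc-GLP-1 replicate 2 or 4), and with normexp and quantile normalization (-0.91, adjusted p = 0.0804), the authors' values (-0.90, adjusted p = 0.0751) or no filter on dim probes (adjusted p = 0.0558). In the same comparison 3 of 11 Kupffer markers fell (summed level 168 to 331 in C+Fc-GLP-1, 178 to 263 in M+Fc-GLP-1 mice) and 3 of 8 lymphocyte markers fell (39.0 to 68.7 and 18.9 to 39.9), and their part in the Clec4g value was not tested.

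Against MCD mice after PH, whose Clec4g levels were 5.79, 5.99, 5.08 and 4.77, the M+Fc-GLP-1 mice also lay lower, by -1.07 ± 0.33 (SE), 2.10-fold, adjusted p = 0.0469. These groups were on different slides, and 6.45% of all genes and 1 of the 10 were called. Only 1 of the 8 fits without 1 array kept this call, with adjusted p from 0.0258 to 0.164. It was also lost with 5 other settings, normexp and quantile normalization (-1.03, adjusted p = 0.0574), median centring (-1.21, adjusted p = 0.0523), the authors' values (-1.02, adjusted p = 0.0504), no filter on dim probes (adjusted p = 0.0916) and only these groups fitted (adjusted p = 0.073). Here 3 of 11 Kupffer markers fell too (240 to 470 in MCD, 178 to 263 in M+Fc-GLP-1 mice). So did 1 of 5 platelet and megakaryocyte and 1 of 9 recruited macrophage markers, while 1 of 9 hepatocyte markers rose. The part of these markers in the Clec4g value was not tested. Before PH the M+Fc-GLP-1 mice spread over a wide range, 4.2, 5.60, 5.19 and 3.86, against 5.02, 5.49, 5.33 and 5.19 in C+Fc-GLP-1 mice, a difference of -0.54 ± 0.33 (SE), adjusted p = 0.318. On the chow diet Clec4g hardly varied before PH, from 4.98 to 5.20 in C mice, with 5.78, 5.07, 5.24 and 4.94 in MCD mice. The change of the diet effect under Fc-GLP-1 from before to after PH was -0.53 ± 0.47 (SE), adjusted p = 0.752.

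Stab1, the other stabilin, passed the threshold in none of the 14 comparisons, with adjusted p from 0.152 to 0.983. Its group means ran from 2.63 ± 0.21 (SD, n = 3) in MCD mice after PH to 3.36 ± 0.23 (SD, n = 4) in C mice before PH. Between MCD and C mice before PH it differed by -0.13 ± 0.24 (SE), where Stab2 differed by 0.92. MCD mice after PH (2.53, 2.49 and 2.87) lay below MCD mice before PH (3.25, 3.52, 3.00 and 3.18) without overlap, by -0.61 ± 0.26 (SE), adjusted p = 0.152, on different slides.

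Lyve1 varied most within groups. In C mice before PH it was -2.94, -2.71, -2.70 and -0.18, the last array standing far above the others, and in MCD mice -2.08, -1.02, -0.35 and -0.64. The difference of 1.11 ± 0.53 (SE) had an adjusted p of 0.12, and of 1.76 with an adjusted p of 0.00969 without C before PH replicate 4. In the treated groups before PH the levels were -1.30, -2.01, -0.87 and -0.37 in C+Fc-GLP-1 against 0.07, -0.12, -0.42 and -0.26 in M+Fc-GLP-1 mice, a difference of 0.95 ± 0.53 (SE), adjusted p = 0.267. After PH the group means lay between -1.25 ± 0.91 and -0.84 ± 0.59 (SD, n = 4), closer together than their own spread.

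**Figure D2:**
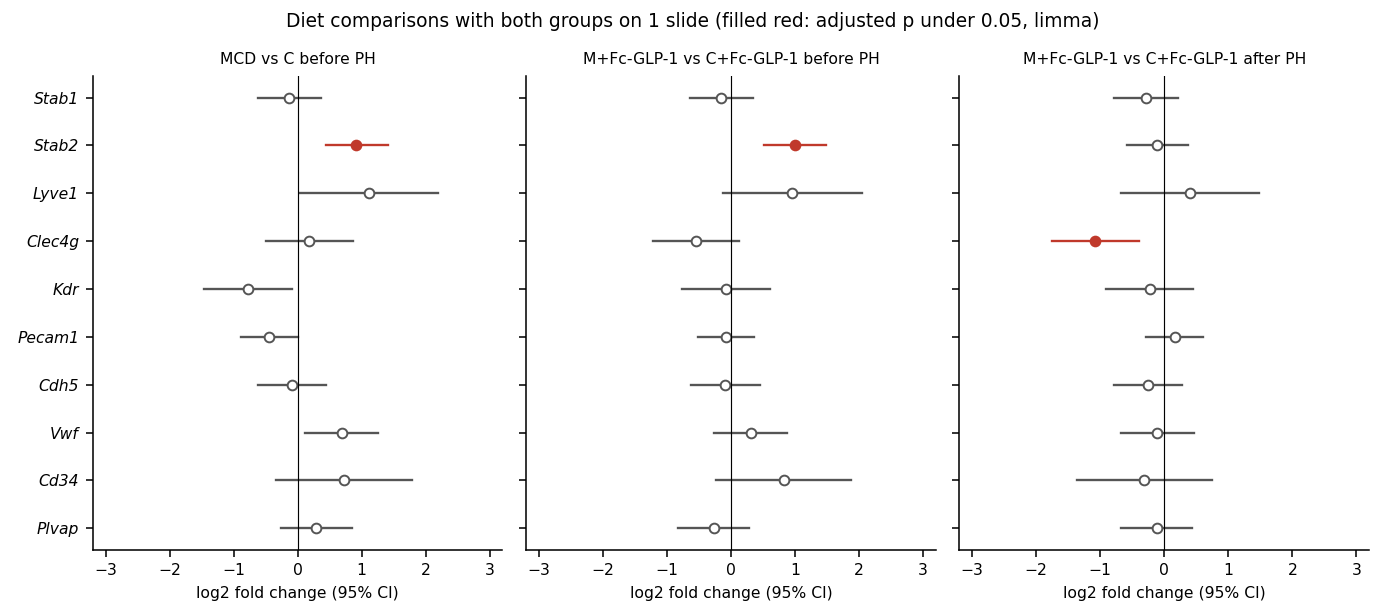
Log2 fold change with 95% confidence interval (x axis) for each gene (y axis) in the 3 diet comparisons made within a slide. Filled red points mark an adjusted p under 0.05, which were Stab2 at 0.92 and 1.00 before PH and Clec4g at -1.08 after PH, and the intervals of Lyve1 and Cd34 were the widest.

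Among the general endothelial genes, Kdr, which encodes VEGF receptor 2, was the one that passed once. With its brightest probe the levels in MCD mice were 1.62, 1.96, 1.85 and 1.82 before and 2.62, 3.06, 2.94 and 2.78 after PH, a difference of 1.04 ± 0.33 (SE), 2.05-fold, adjusted p = 0.0469, with 9.33% of all genes and 1 of the 10 called. In all 8 fits without 1 array the call was lost, with adjusted p from 0.062 to 0.114, and the groups lay on different slides. Of 8 lymphocyte markers 3 rose in this comparison (16.9 to 21.0 before, 31.7 to 43.7 after PH). In addition 1 of 11 Kupffer and 1 of 4 mesothelial markers rose, and 1 of 10 stellate markers fell. The part of these markers in the Kdr value was not tested. The other Kdr probe, averaged over its 10 spots, was 2.59 ± 0.20 before and 2.38 ± 0.12 after PH (SD, n = 4), a difference of -0.21 ± 0.22 (SE), adjusted p = 0.625, in the opposite direction. In C mice before PH the brightest probe gave 1.93, 3.07, 2.29 and 3.06, from which MCD mice differed by -0.77 ± 0.33 (SE), adjusted p = 0.0839. This passed with normexp and quantile normalization (-0.89, adjusted p = 0.00556), the authors' values (-0.90, adjusted p = 0.0057) and without C before PH replicate 1 (-0.99, adjusted p = 0.0424), whereas probe A_51_P316553 of Kdr differed by 0.05 ± 0.22 (SE), adjusted p = 0.903. Neither of these differences of the brightest Kdr probe was thus shared by the other probe.

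Pecam1, which encodes the adhesion molecule CD31, and Cdh5, which encodes VE-cadherin of endothelial junctions, varied least over the study. The 8 group means of Pecam1 spanned 0.44 log2 units, from -1.44 ± 0.28 in MCD mice to -1 ± 0.40 in C mice, both before PH (SD, n = 4). Those of Cdh5 spanned 0.50, from 0.89 ± 0.20 in M+Fc-GLP-1 mice before PH to 1.39 ± 0.58 in C mice after PH. Their adjusted p lay between 0.133 and 0.93 for Pecam1 and between 0.482 and 0.996 for Cdh5. Within the slides the 95% intervals of the diet difference in Cdh5 were -0.62 to 0.45 for MCD vs C and for M+Fc-GLP-1 vs C+Fc-GLP-1 before PH, and -0.79 to 0.28 after PH.

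Vwf, which encodes von Willebrand factor, the carrier of factor VIII and bridge for platelets, rose in C mice from before to after PH with its brightest probe. The levels were 0.67, 1.61, 1.47 and 1.08 before and 2.26, 1.90, 2.26 and 2.13 after PH, without overlap. The difference was 0.93 ± 0.28 (SE), 1.90-fold, interval 0.36 to 1.5, adjusted p = 0.0256, on different slides, with 13.8% of all genes and 1 of the 10 called. The dim Vwf probe A_55_P2169659 differed by -1.79 ± 0.42 (SE), adjusted p = 0.00561, the other way, but was well above background on 3 of 4 arrays before and 1 of 4 after PH. The mean of both probes gave -0.43, adjusted p = 0.31. The call of the brightest probe was lost without C before PH replicate 1 or 4 or C after PH replicate 1 or 3, with adjusted p up to 0.0921. In this comparison 10 of 11 Kupffer markers rose (68.0 to 104 before, 125 to 538 after PH), as did 6 of 9 recruited macrophage markers. Of the stellate markers 3 of 10 rose (79.1 to 117 before, 111 to 174 after PH). Of the platelet and megakaryocyte markers 1 of 5 rose (1.26 to 1.82 before, 1.64 to 4.94 after PH). Of 9 hepatocyte markers 1 fell, and of 8 lymphocyte markers 1 rose and 1 fell. The part of all these markers in the Vwf value was not tested. Between MCD mice (2.17, 2.01, 1.37 and 2.04) and C mice before PH, Vwf differed by 0.69 ± 0.28 (SE), adjusted p = 0.0674, and passed with median centring (1.05, adjusted p = 0.0206), without C before PH replicate 2 (0.82, adjusted p = 0.0436) and without MCD before PH replicate 3 (0.86, adjusted p = 0.0361).

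Cd34, a sialomucin of capillary endothelium and blood progenitors, had the largest differences but also a wide spread. In C+Fc-GLP-1 mice it was -1.76, -1.69, -0.46 and -0.81 before and 1.94, 0.23, 0.91 and -0.14 after PH, a difference of 1.92 ± 0.52 (SE), interval 0.86 to 2.97, adjusted p = 0.0699, without overlap, and of 1.67 with an adjusted p of 0.0277 with normexp and quantile normalization. In C mice it was -1.03, -0.30, -0.63 and -0.90 before and 1.77, 1.06, -0.38 and 0.53 after PH, a difference of 1.46 ± 0.52 (SE), adjusted p = 0.0561, and of 1.62 with an adjusted p of 0.0459 after median centring. In MCD mice it was -0.33, 0.30, -0.08 and 0.12 before and -1.03, -0.63, -0.51 and -0.40 after PH, a difference of -0.65 ± 0.52 (SE), adjusted p = 0.485, without overlap and opposite in sign to that in C mice. MCD mice after PH lay below C mice after PH without overlap, by -1.39 ± 0.52 (SE), interval -2.44 to -0.33, adjusted p = 0.0776, on different slides and with 0 of the 10 genes called against 12.2% of all genes (2 of the 10 at an unadjusted p under 0.05, in limma). Without C after PH replicate 3 the difference between MCD and C mice was -1.76, adjusted p = 0.039, and that between C mice after and before PH was 1.84, adjusted p = 0.0215. The second Cd34 probe was well above background on no more than 1 array of any group and gave no value.

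Plvap, which encodes a protein of the diaphragms of endothelial pores and caveolae, passed in none of the comparisons with the 75th percentile scaling. Its group means lay between 3.96 ± 0.45 in M+Fc-GLP-1 mice before PH and 4.77 ± 0.42 (SD, n = 4) in MCD mice after PH. In MCD mice after PH the levels were 5.37, 4.73, 4.43 and 4.56, against 4.21, 4.44, 4.04 and 4.12 in C mice after PH, a difference of 0.57 ± 0.27 (SE), adjusted p = 0.181. Between MCD and C mice before PH it differed by 0.29 ± 0.27 (SE), adjusted p = 0.439, but by 0.94, adjusted p = 0.0132, with normexp and quantile normalization. With that setting it also passed in M+Fc-GLP-1 vs MCD mice before PH (-0.99, adjusted p = 0.0209, in place of -0.32), in the same groups after PH (-0.92, adjusted p = 0.0473, in place of -0.45) and in C mice after vs before PH (0.81, adjusted p = 0.0474, in place of 0.21). The other Plvap probe was well above background on all arrays. Before PH it averaged 1.03 ± 0.86 in C, 0.88 ± 0.32 in MCD and 1.05 ± 0.51 in M+Fc-GLP-1 mice (SD, n = 4). After PH these were 1.10 ± 0.15, 1.57 ± 0.55 and 0.92 ± 0.20 in the same order. It thus went the opposite way for MCD vs C and M+Fc-GLP-1 vs MCD before PH, and the same way in the other Plvap comparisons above.

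**Figure D3:**
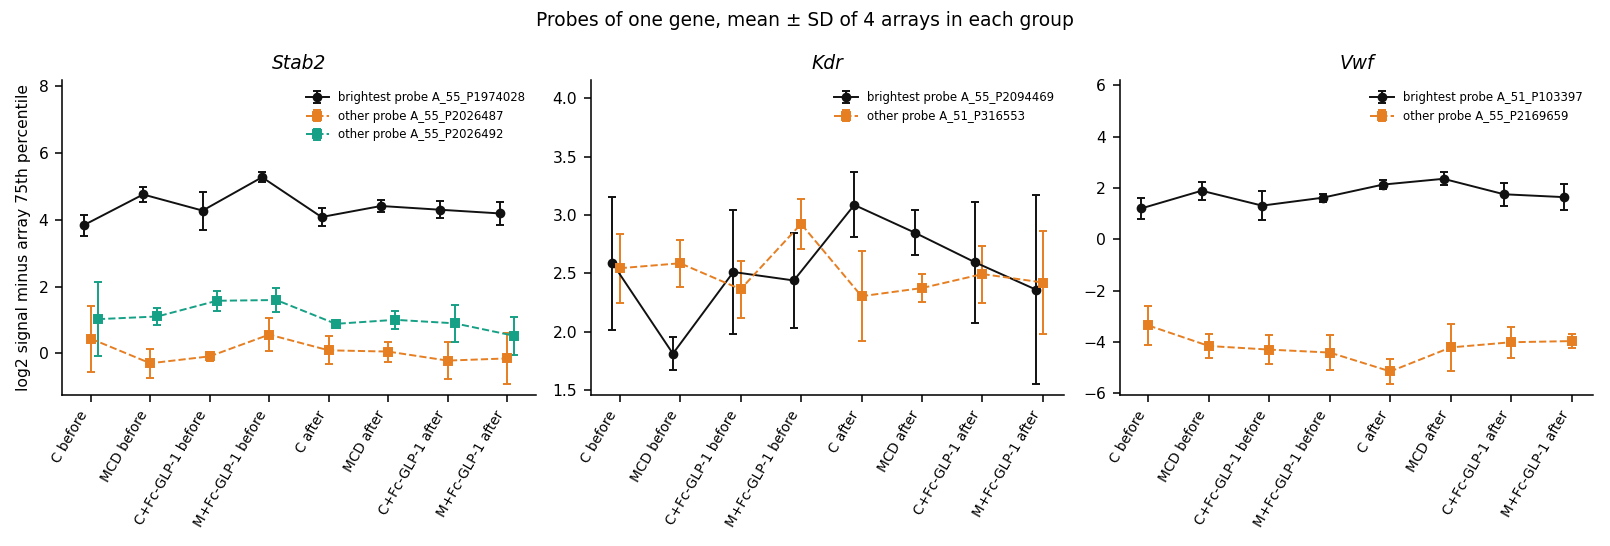
Mean ± SD (y axis, log2 signal minus the array's 75th percentile) of each kept probe of Stab2, Kdr and Vwf in the 8 groups (x axis), with 4 arrays a group, the dim Vwf probe being well above background on all 4 arrays in MCD mice before PH only. The brightest Kdr probe dips to 1.81 in MCD mice before PH where the other stays at 2.59.

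Fc-GLP-1 itself was compared across slides. Between C+Fc-GLP-1 and C mice before PH 0 of the 10 genes were called, and 0 had an unadjusted p under 0.05 in limma, with 2.08% of all genes called. The number of all genes called there was 442, but 2489 with normexp and quantile normalization, 2139 with the authors' values and 1051 after median centring. After PH the same pair also gave 0 and 0, with 2.05% of all genes called. In M+Fc-GLP-1 vs MCD mice before PH 0 were called and 1, Stab2, had an unadjusted p under 0.05 (0.51 ± 0.24 SE, adjusted p = 0.18, no overlap), with 7.21% of all genes called. Kdr did not overlap between these groups either, at 2.78, 2.10, 2.07 and 2.81 against 1.62 to 1.96, a difference of 0.63 ± 0.33 (SE), adjusted p = 0.25, but 1.01 with an adjusted p of 0.00724 with normexp and quantile normalization. In M+Fc-GLP-1 vs MCD mice after PH 1 was called, Clec4g as given above, with 6.45% of all genes called. In limma 3 of the 10 had an unadjusted p under 0.05 there. Besides Clec4g these were Vwf (-0.71 ± 0.28 SE, adjusted p = 0.123) and Cd34 (1.07 ± 0.52 SE, adjusted p = 0.218). From before to after PH in C+Fc-GLP-1 mice 0 of the 10 were called and 1, Cd34, had an unadjusted p under 0.05, with 0.831% of all genes called.

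**Figure D4:**
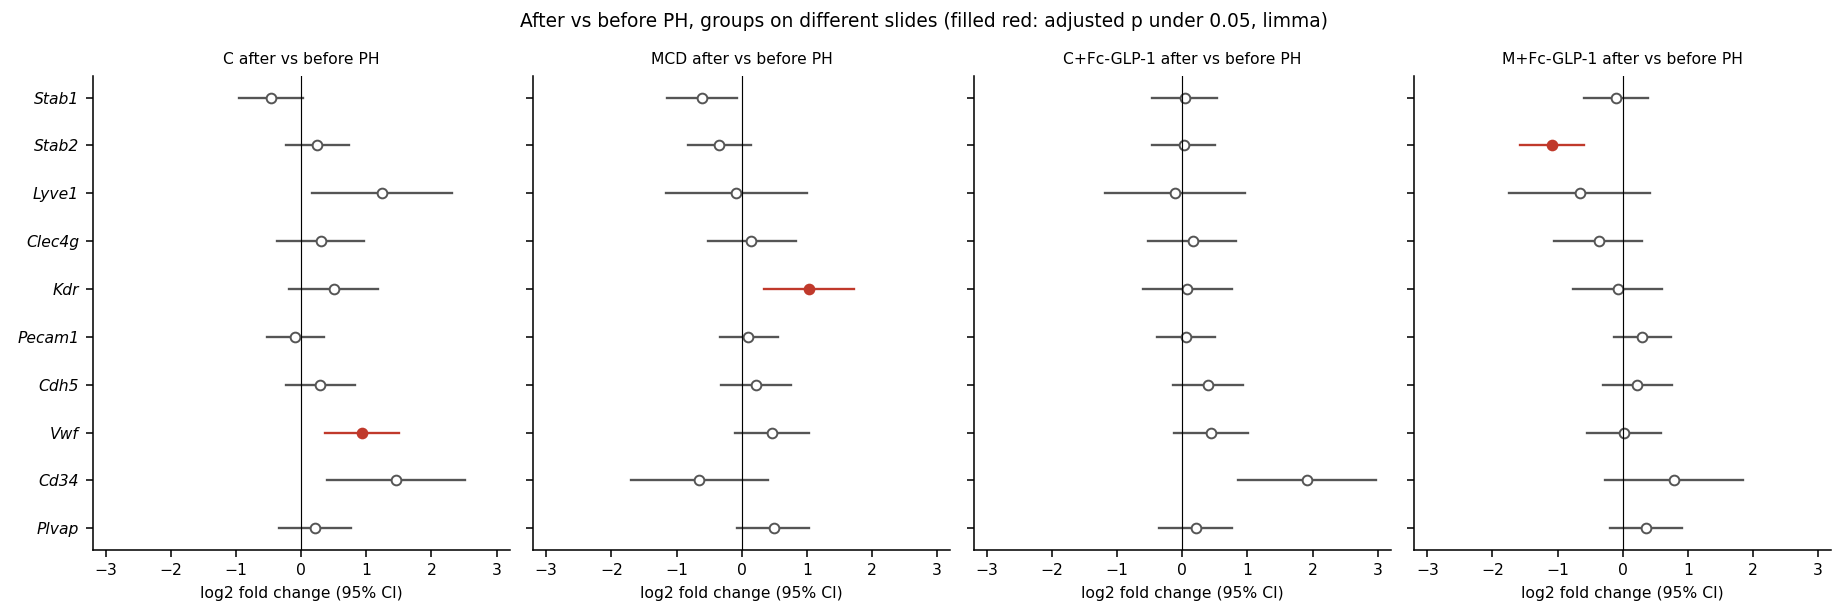
Log2 fold change after vs before PH with 95% confidence interval (x axis) for each gene (y axis) in the 4 conditions, whose groups lay on different slides. The C and MCD pairs were also read on different scanners. Filled red points mark an adjusted p under 0.05, which were Vwf in C (0.93), Kdr in MCD (1.04) and Stab2 in M+Fc-GLP-1 mice (-1.08).

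As a description of the balance between both kinds of marker, the mean level of Vwf, Cd34 and Plvap minus that of Stab2, Lyve1 and Clec4g was taken on each array. Stab1, measured on 31 arrays, was left out. Between MCD and C mice before PH Stab1 differed by -0.13, against 0.92, 1.11 and 0.18 for Stab2, Lyve1 and Clec4g. The zero of this balance has no meaning, since probes differ in brightness. Before PH the C mice had -0.76 ± 0.62 and the MCD mice -0.94 ± 0.44, the C+Fc-GLP-1 mice had -1.34 ± 0.35 and the M+Fc-GLP-1 mice -1.52 ± 0.57 (SD, n = 4). After PH these means were -0.49 ± 0.46, -0.74 ± 0.46, -0.50 ± 0.29 and -0.43 ± 0.43 in the same order. MCD and C mice thus differed by less than the spread within either group at both times. The arrays of C+Fc-GLP-1 mice ran from -1.85 to -1.05 before and -0.72 to -0.07 after PH, and those of M+Fc-GLP-1 mice from -2.05 to -1.01 before and -0.81 to 0.16 after PH, without overlap, on different slides. The genes did not share these shifts evenly. In C+Fc-GLP-1 mice Cd34, Vwf and Plvap changed by 1.92, 0.44 and 0.21. Stab2, Lyve1 and Clec4g changed there by 0.03, -0.11 and 0.16, and none of them was called. In M+Fc-GLP-1 mice these values were 0.78, 0.02 and 0.36, and -1.08, -0.66 and -0.37, with only Stab2 called.

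The order of the 8 group means was rarely clear. Of the 70 steps between neighbouring group means in the order of a gene, 67 were no larger than the larger SD of the pair. The exceptions were in Stab2 and Lyve1. For Stab2 the order ran from M+Fc-GLP-1 before PH (5.27), MCD before (4.76) and MCD after PH (4.41) to C mice before PH (3.83). For Lyve1 M+Fc-GLP-1 mice before PH were highest (-0.18) and C mice before PH lowest (-2.13), the groups between them lying from -1.25 to -0.84.

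Within groups the markers did not vary as 1 block. After the group means were subtracted, the 45 pairs of genes had correlations over the arrays from -0.51 to 0.54 with a median of 0.05, and 26 were positive. The highest was between Stab1 and Cdh5 (r = 0.54 over 31 arrays), followed by Stab2 and Cdh5 (0.42), and the lowest between Clec4g and Cd34 (-0.51). All genes of an array share its percentile and RNA, and these values are descriptions. The 3 other genes most like the mean deviation of the 4 sinusoidal genes over 32 arrays were Ramp2 (r = 0.66), which encodes a co-receptor for adrenomedullin, Rpl37a (0.66), a ribosomal protein gene, and B4galt4 (0.65), a galactosyltransferase gene.

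Other genes of LSEC were followed for comparison. Of 17 tested, 5 rose and 1 fell between MCD and C mice before PH, or 35.3% against 26.3% of all genes, with a median log2 change of 0.49 against -0.12 over all genes. The largest increases were in Cd36, a fatty acid and thrombospondin receptor that hepatocytes and macrophages also express (2.21 ± 0.40 SE, adjusted p = 0.000188), and Clec1b, the podoplanin receptor CLEC-2 of platelets and LSEC (1.68 ± 0.37, adjusted p = 0.00148). The 1 that fell was Gata4, a transcription factor of LSEC identity (-1.67 ± 0.27 SE, adjusted p = 5.51e-05). Which cells carried the Cd36 and Clec1b increases was not tested, and 7 of 11 Kupffer markers also rose in this comparison. Under Fc-GLP-1 before PH 3 of 17 rose and 1 fell, or 23.5% against 10.4% of all genes, with Cd36 at 1.81 ± 0.40, Clec1b at 1.19 ± 0.37 and Gata4 at -1.27 ± 0.27 (SE; adjusted p = 0.00328, 0.038 and 0.00227). After PH 1 of 17 rose and 2 fell between M+Fc-GLP-1 and C+Fc-GLP-1 mice, or 17.6% against 12.9%, with Cd36 at 1.5 ± 0.40, Gata4 at -1.11 ± 0.27 and Tfpi, an inhibitor of coagulation, at -1.20 ± 0.23 (SE; adjusted p = 0.0116, 0.00615 and 0.000749). The Clec1b call under Fc-GLP-1 was lost with normexp and quantile normalization, the authors' values or median centring, after which 1 of 17 rose and 1 fell, and with no filter on dim probes.

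Of 22 other pan-endothelial genes tested, 2 rose and 3 fell between MCD and C mice before PH (22.7% against 26.3% of all genes, median 0.14), 0 of either kind under Fc-GLP-1 before PH (against 10.4% of all genes, median 0.15, 1 at an unadjusted p under 0.05 in limma) and 0 rose and 1 fell under Fc-GLP-1 after PH (4.55% against 12.9%, median -0.38). Klf4, a shear-responsive transcription factor, rose by 1.29 ± 0.38 (SE) and Lmo2, a regulator of blood and endothelial cells, by 0.85 ± 0.23, whereas Tie1, a receptor of the angiopoietin system, changed by -1.10 ± 0.34 and Cldn5, a tight-junction gene, by -0.72 ± 0.26. The gene that fell after PH was Ecscr, an endothelial surface protein gene (-1.14 ± 0.38 SE, adjusted p = 0.0427). The split for MCD vs C depended on scaling, with 5 higher and 0 lower after median centring (median 0.51), where Tie1 and Cldn5 did not pass. With normexp and quantile normalization or the authors' values Tie1, Cldn5, Lmo2 and Ecscr did not pass, with no filter on dim probes Cldn5 and Ecscr did not, and with the replicate number as a block Ecscr did not.

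Genes of continuous capillaries, veins and their basement membrane gave 6 higher and 2 lower of 19 between MCD and C mice before PH, or 42.1% against 26.3% of all genes, with a median of 0.40. Vcam1, a leukocyte adhesion molecule, rose by 2.54 ± 0.54 (SE) and Nid1, a basement membrane linker, by 1.67 ± 0.47, whereas its relative Nid2 changed by -1.01 ± 0.24 and Vwa1, a matrix protein gene, by -1.34 ± 0.36. Under Fc-GLP-1 1 of 19 was higher and 1 lower before PH, Rgcc, a cell cycle regulator (2.48 ± 0.41 SE), and Nid2 (-2.01 ± 0.24), and 0 were higher and 1 lower after PH, again Nid2 (-1.76 ± 0.24 SE). These were 10.5% against 10.4% of all genes before and 5.26% against 12.9% after PH. Nid2 thus passed in the same direction in each of the 3 diet comparisons within a slide, although not for MCD vs C after median centring. With normexp and quantile normalization 2 of 19 rose and 2 fell between MCD and C mice, and Nid1 and Vwa1 did not pass, nor did they with the authors' values.

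Of 17 genes of VEGF, angiopoietin and Notch signalling 2 rose and 3 fell between MCD and C mice before PH, and 0 rose and 2 fell under Fc-GLP-1 both before and after PH. These were 29.4% against 26.3% of all genes, and 11.8% against 10.4% before and 12.9% after PH. Vegfb, a VEGF family ligand, was lower on the MCD diet in all 3, by -1.72 ± 0.23, -1.05 ± 0.23 and -1.09 ± 0.23 (SE; adjusted p = 5.39e-06, 0.0036 and 0.00197). After median centring 6 of 17 rose and 2 fell between MCD and C mice. Notch1, a Notch receptor, changed by -2.23 ± 0.66 (SE) between MCD and C mice, while Hey1, a Notch target well above background on 2 of 4 C arrays, rose by 1.83 ± 0.51 and Vegfc, a lymphatic growth factor, by 0.94 ± 0.35. Hey1 did not pass with normexp and quantile normalization, Hey1 and Notch1 did not with the authors' values, and Vegfc did not with no filter on dim probes or with the replicate number as a block. Heyl, a Notch target, was not well above background on any M+Fc-GLP-1 array before PH and was at least 2.8-fold lower there than in C+Fc-GLP-1 mice (adjusted p = 0.00543; not called with the authors' values), and after PH differed by -2.25 ± 0.39 (SE, adjusted p = 0.000223).

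The angiocrine list held signals from endothelium to hepatocytes and related genes, among them Gdf2 and the receptor gene Acvrl1. Its counts are therefore not those of endothelial signals alone. Of its 9 tested genes 3 rose and 0 fell between MCD and C mice before PH (33.3% against 26.3% of all genes, median 0.93). Under Fc-GLP-1 1 of 9 was called both before (11.1% against 10.4%) and after PH (11.1% against 12.9%). Rspo3, an enhancer of Wnt signalling from central vein endothelium, rose by 1.19 ± 0.29 (SE, adjusted p = 0.00334) without and 1.13 ± 0.29 (adjusted p = 0.0109) with Fc-GLP-1, and neither call held with normexp and quantile normalization or the authors' values. After PH Rspo3 differed between M+Fc-GLP-1 and C+Fc-GLP-1 mice by -0.39 ± 0.29 (SE, adjusted p = 0.434). Gdf2, which encodes BMP9 and is made by stellate cells, rose by 1.25 ± 0.47 (SE, adjusted p = 0.0459) between MCD and C mice, and Acvrl1, its receptor ALK1, changed by -1.01 ± 0.33 (SE, adjusted p = 0.044) under Fc-GLP-1 after PH. With no filter on dim probes neither passed, and Gdf2 did not with the replicate number as a block. Of 4 lymphatic endothelial genes 0 were called in each of these 3 comparisons, and at an unadjusted p under 0.05 limma gave 0, 2 and 0.

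**Figure D5:**
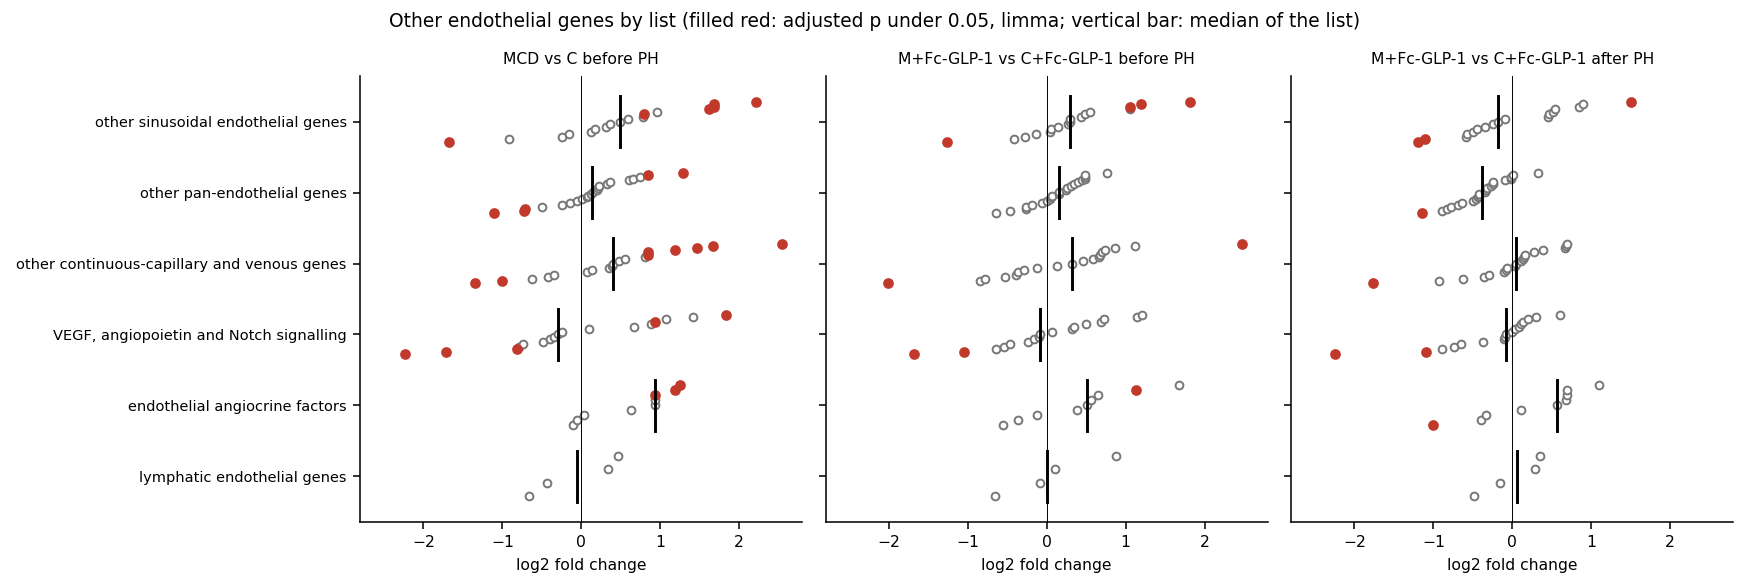
Log2 fold change (x axis) of every tested gene of 6 other endothelial lists (y axis) in the 3 diet comparisons within a slide, with filled red points for an adjusted p under 0.05 and a vertical bar for the list's median. The median of other sinusoidal genes was 0.49 between MCD and C mice before PH and -0.18 between M+Fc-GLP-1 and C+Fc-GLP-1 mice after PH.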

How the data were processed

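Total RNA of mouse livers was hybridised to one-colour Agilent arrays. The authors deposited each array's scanner output, in which processed signal intensity is already corrected for background by Feature Extraction 10.7.3.1, and a table of normalized log2 values, normalized separately before and after PH. Here log2 of the processed signal minus each array's 75th percentile over 59305 non-control spots was used. Spots flagged as outliers were left out, and probes were kept if measured on at least 3 arrays of every group and if some group had all 4 arrays well above background (29300 of 55681). The brightest kept probe stood for a gene, and RefSeq accessions renamed 1711 probes. All 32 arrays in 8 labelled groups were fitted together in limma 3.58.1 (R 4.3.3), with Benjamini-Hochberg adjustment over 21289 genes and a threshold of 0.05. The scripts were tested on simulated data. The number of arrays limits the precision, and the p-values measure the spread between labelled biological replicates.

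The markers and gene lists were chosen with earlier results of these data known. The genes named from the other endothelial lists were those called with the largest changes in each direction, at most 2 per list, direction and comparison within a slide. Alternatives covered background correction and normalization, centring, the authors' values, the filter on dim probes, the mean over probes, only the groups compared, a replicate block and leaving out each array. Same-numbered samples did not deviate together, before and after PH included, so replicate numbers were not taken to pair samples.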

Additional observations from a re-analysis of the deposited data

Results flagged for a closer look

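A sample far from the others of its group was found in 2 of the 79 gene and group combinations tested (Dixon's ratio of the gap to the range, above its critical value), and chance alone flags about 1 in 20. Lyve1 on C before PH replicate 4 was -0.18, the highest of its group, with the nearest array at -2.70 and a ratio of 0.916. Plvap on C+Fc-GLP-1 after PH replicate 1 was 4.06, the lowest of its group, with the nearest array at 4.55 and a ratio of 0.928. Without the first of these arrays Lyve1 passed the threshold in MCD vs C before PH and in C after vs before PH (1.76 and 1.89 on the log2 scale).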

How the results depend on the processing

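None of the 7 calls held under every alternative, and 60 of the 133 differences that were not called changed sign under some alternative, with the cause not tested. Vwf in C after vs before PH reversed with the mean over probes (-0.43, adjusted p = 0.31). The number of the 10 genes called, in the order of the main value and the alternatives, was as follows. For MCD vs C before PH 1 (Stab2) became 2 with normexp and quantile normalization or the authors' values, which called Plvap and Kdr and not Stab2, 2 with median centring (Stab2 and Vwf), and 0 with the mean over probes. For M+Fc-GLP-1 vs C+Fc-GLP-1 before PH 1 became 0 with these 4 settings and with only the groups compared. For that pair after PH 1 became 0 with normexp and quantile normalization, the authors' values or no filter on dim probes. For M+Fc-GLP-1 vs MCD 0 became 2 (Plvap and Kdr) before PH with normexp and quantile normalization or the authors' values. After PH 1 (Clec4g) became 0 with median centring, no filter or only the groups compared, and with normexp and quantile normalization or the authors' values the 1 call was Plvap in place of Clec4g. For C after vs before PH 1 became 2 with normexp and quantile normalization, median centring or the percentile over probes well above background, and 0 with the mean over probes or only the groups compared. For MCD after vs before PH 1 became 0 with median centring, no filter or the mean over probes. For C+Fc-GLP-1 after vs before PH 0 became 1 with normexp and quantile normalization. For M+Fc-GLP-1 after vs before PH 1 became 0 with median centring, the mean over probes or only the groups compared. For the interaction of diet with drug 0 became 1 with median centring.

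With 1 array left out the count ran from 1 to 2 for MCD vs C before PH, from 0 to 1 for MCD vs C after PH, M+Fc-GLP-1 vs C+Fc-GLP-1 after PH, M+Fc-GLP-1 vs MCD after PH, C after vs before PH and M+Fc-GLP-1 after vs before PH, and was 0 for MCD after vs before PH. With the replicate block Kdr in MCD after vs before PH was 1.04 with an adjusted p of 0.0532, leaving 0 calls there, and no other count of the 10 genes changed, while of the named genes of the other lists Vegfc, Gdf2 and Ecscr lost their calls. Same-numbered samples of different groups correlated by 0.0173 on average (range -0.221 to 0.516, 19 of 112 pairs over 0.1). Over the 16 pairs before and after PH of 1 condition this was 0.0128 (range -0.0467 to 0.0872, 0 over 0.1), against -0.0041 over 48 pairs of different number, so the numbers were not taken to pair samples. A replicate block within each condition, shared before and after PH and chosen after seeing the data, left 1 call each in C, MCD and M+Fc-GLP-1 mice after vs before PH, but in C mice this was Cd34 (1.46, adjusted p = 0.0469) in place of Vwf (0.93, adjusted p = 0.0507). A percentile over spot-averaged probes and leaving out probes flagged on any array, both chosen after seeing the data, changed no count of the 10 genes, and Cldn5 lost its call with the first. The share of probes well above background ranged from 36.3% to 69.2% over the arrays, which limits the dim probes of Vwf and Cd34. Counts over all genes also moved by more than 1.5 times. With normexp and quantile normalization they went from 2211 to 1443 for M+Fc-GLP-1 vs C+Fc-GLP-1 before PH, 442 to 2489 for C+Fc-GLP-1 vs C before and 436 to 146 after PH, 1534 to 2590 for M+Fc-GLP-1 vs MCD before PH, 177 to 1333 for C+Fc-GLP-1 and 363 to 608 for M+Fc-GLP-1 after vs before PH, and 1305 to 528 and 20 to 5 for the interactions of diet with drug and time. The authors' values gave 1260 for M+Fc-GLP-1 vs C+Fc-GLP-1 before PH, 2139 and 196 for C+Fc-GLP-1 vs C before and after PH, and 343 for the interaction with drug. Median centring gave 1051 for C+Fc-GLP-1 vs C before PH and 2579 and 12 for the interactions. With no filter, over 34946 genes, 6777 and 773 were called for M+Fc-GLP-1 vs MCD before and after PH (1374 after PH with the filter), 208 for C+Fc-GLP-1 vs C after PH, 710 for C+Fc-GLP-1 and 937 for M+Fc-GLP-1 after vs before PH, and 7 for the interaction with time.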
